A study of Homo sapiens with 12 samples.

Results

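The genes described here are 37 of the 56832 genes in an RNA-seq table of the prostate cancer line DU145: subunits and inhibitors of the transcription factor NF-κB, and chemokines, cytokines and other genes it is known to switch on. They were taken from a list of symbols, with no threshold on their values, and each of the 37 was found in the table. The list was chosen with earlier results of these data known, so shares of these genes set beside those of all genes are descriptions only. Of these, 25 reached a mean of 1 TPM, a unit of transcripts per library corrected for transcript length, in RAC1 knockout or RAC1-positive lines and were tested. The other 12 stayed below that level: CXCL3, CXCL5, CXCL6, CCL2, IL1A, IL1B, TNF, CSF3, TRAF1, PTGS2, SAA1 and SAA2.

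NF-κB is a family of dimeric transcription factors that inhibitors of the IκB family hold in the cytoplasm until receptors for tumour necrosis factor, interleukin-1 or bacterial products set off the IκB kinase. The freed dimers bind κB sites in promoters and enhancers and switch on chemokines, cytokines, survival genes and adhesion molecules, together with their own inhibitors. DU145 is known to secrete interleukins without being stimulated, and RAC1, the gene edited here, encodes a GTPase that controls the actin cytoskeleton.

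Each of 6 DU145 lines gave 2 biological replicates, and the labels give replicate 1 to batch 1 and replicate 2 to batch 2. The 3 RAC1-positive lines were the parental cells, labelled WT, and sgNTC clones 1 and 2, which share the guide label sgNTC_1. Of the 3 RAC1 knockout lines, sgRAC1 clone 1 carried the guide sgRAC1_1 and sgRAC1 clones 2 and 3 carried sgRAC1_2. All were grown in RPMI with 10% serum, and no inflammatory stimulus is named in the labels. The edited lines each descend from 1 cell that had received guide RNA and Cas9 as a complex, so a line's own traits and its genotype cannot be told apart within that line. Where a pair of values is given for a line below, the first is replicate 1.

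RAC1 itself was listed at 171 and 169.6 TPM in the parental line, 188 and 149 in sgNTC clone 1 and 202 and 152 in sgNTC clone 2. Its values were 47.5 and 36.5, 59.2 and 54.2 and 39.6 and 40.3 TPM in sgRAC1 clones 1, 2 and 3, so the libraries of the genotypes did not overlap. RAC1 RNA thus remained in every knockout library, and RNA values do not show whether the protein was lost. The difference of line means was -1.89 ± 0.14 (SE, 3 lines each) in log2(TPM + 1), with an adjusted p of 0.0467 in limma, and it passed under 10 of 26 alternative settings, whose adjusted p ran from 0.0136 to 0.307. TPM keeps no record of sequencing depth, so the depth is unknown. In sgNTC clone 2 replicate 1 only 13608 genes were above 0, against 20470 to 25156 in the other libraries, and 7 of the 25 tested inflammatory genes were at 0 there. Several results that rest on it are given with and without it. The epithelial markers KRT8, KRT18, KRT19, EPCAM and KRT7 were present and the luminal prostate markers KLK3 and TMPRSS2 at 0 in every library. A list of 9 leukocyte markers summed to 2.02 to 7.90 TPM in knockout libraries and 0 to 2.83 TPM in RAC1-positive ones, while PTPRC, CD3E and TYROBP were at 0 in every library. The values come from bulk RNA, in which fewer cells that express a gene and less RNA per cell cannot be told apart.

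The 250 bases before the start of 28 of the 37 genes were available from RefSeq (GRCh38.p14). The κB consensus, which is 10 letters long, was searched on both strands and occurred in 14 of these 28 promoters, or 50%, against 9.57% of 27305 promoters in the table. Because the genes were picked as known NF-κB genes, this share is no independent finding. The AP-1 motif TGANTCA, which reads the same on both strands, occurred in 5 of the 28, or 17.9%, against 6.6%. The κB letters stood in promoters of genes that were higher, lower and alike between the genotypes. The stretches of 30 bases shown first give 1 match per gene in capitals, 5′ to 3′ on the strand of the gene. CXCL1 and CXCL2 are neighbouring chemokine genes with nearly the same stretch. TNFRSF9 and LCN2 had higher levels in the knockout lines, and NFKBIA encodes the main inhibitor.
CXCL1, chr4:73869304-73869333, plus strand: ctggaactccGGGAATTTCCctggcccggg
CXCL2, chr4:74099254-74099283, minus strand: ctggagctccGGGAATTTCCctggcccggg
TNFRSF9, chr1:7940894-7940923, minus strand: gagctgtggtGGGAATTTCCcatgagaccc
LCN2, chr9:128149268-128149297, plus strand: cagcactccgGGAATGTCCCtcactctccc
NFKBIA, chr14:35404811-35404840, minus strand: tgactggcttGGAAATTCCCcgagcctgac
A longer part of the promoter is shown for 4 genes whose line means separated the genotypes, cut so that no annotated exon is included, with κB matches in capitals. BIRC3 and IL6 were on the higher side in the knockout lines, and CCL20 and NFKB1 on the lower side.
BIRC3, chr11:102317234-102317449, plus strand: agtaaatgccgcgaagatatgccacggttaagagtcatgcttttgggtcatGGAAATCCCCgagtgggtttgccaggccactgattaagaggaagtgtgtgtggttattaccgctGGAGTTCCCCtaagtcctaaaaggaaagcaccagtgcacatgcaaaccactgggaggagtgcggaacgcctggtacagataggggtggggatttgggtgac
IL6, chr7:22726950-22727146, plus strand: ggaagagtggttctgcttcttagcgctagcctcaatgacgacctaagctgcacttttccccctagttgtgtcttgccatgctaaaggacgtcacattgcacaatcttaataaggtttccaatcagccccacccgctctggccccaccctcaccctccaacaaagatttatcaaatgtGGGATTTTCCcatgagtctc
CCL20, chr2:227813592-227813821, plus strand: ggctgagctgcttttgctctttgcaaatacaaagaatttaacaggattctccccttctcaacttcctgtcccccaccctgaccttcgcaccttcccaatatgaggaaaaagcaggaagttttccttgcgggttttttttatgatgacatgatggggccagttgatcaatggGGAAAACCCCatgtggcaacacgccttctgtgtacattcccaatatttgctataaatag
NFKB1, chr4:102501109-102501328, plus strand: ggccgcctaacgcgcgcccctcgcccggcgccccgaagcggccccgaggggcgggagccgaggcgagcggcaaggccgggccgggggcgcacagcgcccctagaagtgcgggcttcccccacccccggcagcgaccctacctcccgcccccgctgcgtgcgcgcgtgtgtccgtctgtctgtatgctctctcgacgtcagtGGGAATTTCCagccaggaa
The starts are those of RefSeq, and for CXCL2, TNFRSF9, LCN2, IL6 and CCL20 the stretch shown lies inside the gene span of GENCODE. A match of letters is a description of the sequence and no measure of binding.

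The first comparison asked how these genes differ between RAC1 knockout and RAC1-positive lines, with the line as the unit (3 against 3). TNFRSF9, IL6, ICAM1 and LCN2 stood higher and IL11, CXCL2 and CCL20 lower in the means of the 3 knockout lines. The NF-κB subunits lay at -0.21 to -0.04 and the inhibitor NFKBIA at -0.05 in log2(TPM + 1). Without sgNTC clone 2 replicate 1 these 3 subunit genes lay at -0.25 to -0.15. None of the 25 passed limma with Benjamini-Hochberg adjustment over 17367 genes at 0.05 (0.00576% of all genes tested did, RAC1 alone). At an unadjusted p of 0.05, 9 of 25 passed, against 13% of all genes, with 6 higher (7.53% of all genes) and 3 lower (5.46%). An exact permutation test of 3 lines against 3 cannot go below a p of 0.1.

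Line means of the genotypes did not overlap for 10 of the 25 genes, against 20.5% of all genes tested. CCL5, IL6, BIRC3, TNFRSF9, ICAM1 and LCN2 were on the higher side (12% of all genes) and CXCL2, CCL20, IL11 and NFKB1 on the lower side (8.52%). Without sgNTC clone 2 replicate 1 the count was also 10, with CXCL1 in and CCL5 out, against 23.9% of all genes, and the per-line test again passed 0 of 25, against 0.127%. These means were taken over log2(TPM + 1). On means of TPM, a choice made after seeing the data, the count was also 10 against 20.5% of all genes, with NFKBIE in and BIRC3 out. Not only the means but all 6 libraries of each genotype lay apart for IL11 (lower, as 0.714% of all genes), TNFRSF9 and LCN2 (higher, as 2.14%), against 2.86% in either direction. Over the 25, 16 differences were above 0 and 9 below, beside 9257 and 8110 over all 17367 genes tested. The median of the 25 was 0.20, beside 0.02 for all genes tested. That median ranged from 0.11 without the line sgNTC clone 2 to 0.34 without the parental line, and was 0.13 without sgNTC clone 2 replicate 2 and 0.32 without sgRAC1 clone 3 replicate 1. CCL5 and LCN2 entered the test only through the knockout lines, and IL11 and NFKB2 only through the RAC1-positive lines, so for these the filter itself required a high genotype.

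**Figure D1:**
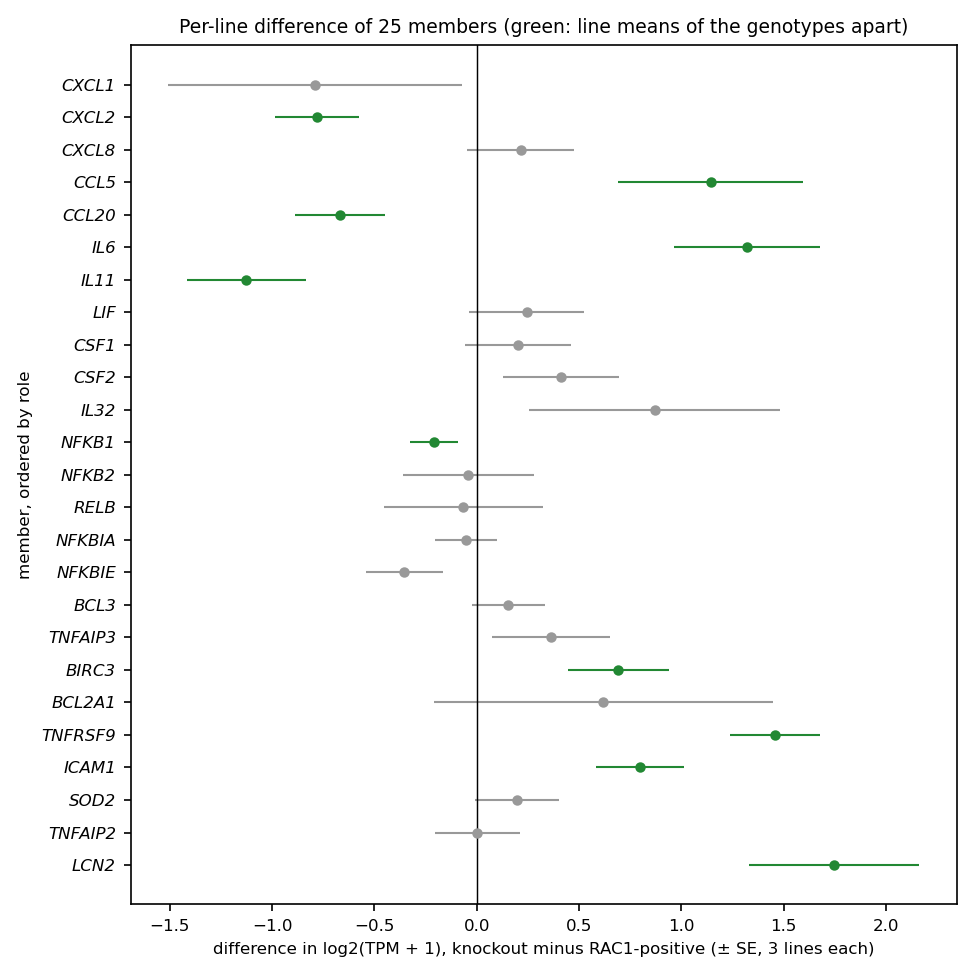
Difference in log2(TPM + 1) between the means of 3 knockout and 3 RAC1-positive lines (x axis) for the 25 tested genes in order of role (y axis), with bars of 1 standard error. The 10 genes in green have line means that do not overlap between the genotypes. LCN2 has the highest value (1.75) and IL11 the lowest (-1.13).

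When the 12 libraries entered limma singly, with the line as a random block, 4 of the 25 genes passed at an adjusted p of 0.05 against 2.12% of all genes. IL11 fell (0.432% of all genes did), and TNFRSF9, ICAM1 and LCN2 rose (1.69%). Of these, IL11 and LCN2 had entered the test only through the genotype in which each was high. The correlation within lines was estimated at -0.03, so these p-values measure mostly the spread between libraries and not between lines. Without sgNTC clone 2 replicate 1, IL11, TNFRSF9 and LCN2 passed, against 3.38% of all genes, and ICAM1 had an adjusted p of 0.0524. TNFRSF9 passed with any 1 library left out, and LCN2 passed unless sgNTC clone 2 replicate 2 was left out. IL11 was lost without sgNTC clone 1 replicate 1, sgNTC clone 2 replicate 2, sgRAC1 clone 2 replicate 1, either library of sgRAC1 clone 3 or parental replicate 2. ICAM1 passed only when the library left out was parental replicate 2 or sgRAC1 clone 2 replicate 1. With sgRAC1 clone 3 left out as a whole line, 0 of the 25 passed, against 0.23% of all genes.

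Among the chemokines, CXCL8 (interleukin-8) had the highest level of the 37 genes, the neutrophil attractants CXCL1 and CXCL2 were far lower, and CXCL3, CXCL5 and CXCL6 never passed 2.34 TPM in a library. These 6 genes share the ELR motif and draw neutrophils through CXCR1 and CXCR2. CXCL8 was listed at 139 and 374 TPM in the parental line, 152 and 134 in sgNTC clone 1 and 112 and 98.4 in sgNTC clone 2. The knockout clones 1, 2 and 3 had 195 and 165, 173 and 218 and 95.8 and 248 TPM. The genotypes overlapped, with parental replicate 2 above every other library. The difference was 0.21 ± 0.26 (limma adjusted p 0.751).

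CXCL2 stood at 13.2 and 29.7 TPM in the parental line, 15.7 and 10.9 in sgNTC clone 1 and 17.0 and 13.9 in sgNTC clone 2. In knockout clones 1, 2 and 3 it stood at 12.5 and 9.12, 8.02 and 6.07 and 10.6 and 7.99 TPM. The 3 knockout line means were the lowest of the 6, and only the first library of sgRAC1 clone 1 reached into the RAC1-positive range. Mean levels over lines were 9.05 ± 1.89 TPM (SD, n = 3 lines) in knockout and 16.7 ± 4.24 TPM in RAC1-positive lines, a difference of -0.78 ± 0.21 in log2(TPM + 1) with a limma adjusted p of 0.224. CXCL1 was listed at 9.46 and 33.9 TPM in the parental line and at 6.505 and 3.65 in sgNTC clone 1. It had 0 and 3.22 in sgNTC clone 2, and 2.82 and 1.98, 2.65 and 1.87 and 1.89 and 4.81 in knockout clones 1, 2 and 3. The parental line was the highest for CXCL1 and the 0 of sgNTC clone 2 replicate 1 the lowest, so the knockout libraries lay inside the RAC1-positive range. Its difference was -0.79 ± 0.72 (limma adjusted p 0.669), and -1.14 ± 0.52 without sgNTC clone 2 replicate 1 (adjusted p 0.318). Without the whole parental line it was 0.03. Of the windows of 50 bases in their transcripts, 4.81% of CXCL1 are also in CXCL2 and 8.99% of CXCL2 are in CXCL3, so reads there could not be told apart by sequence alone.

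Of the CC chemokines, CCL20 had its 3 lowest line means in the knockout lines and CCL5 its 3 highest, and neither passed the per-line test. CCL20, which draws cells that carry CCR6, was listed at 9.89 and 11.3 TPM in the parental line, 10.6 and 4.73 in sgNTC clone 1 and 12.8 and 10.1 in sgNTC clone 2. In knockout clones 1, 2 and 3 it was listed at 5.72 and 7.77, 5.75 and 3.43 and 6.54 and 5.41 TPM. Line means did not overlap, but sgNTC clone 1 replicate 2 lay within the knockout range. The difference was -0.67 ± 0.22 with a limma adjusted p of 0.283. CCL5 (RANTES) was at 0 to 0.345 TPM in RAC1-positive libraries, and at 0 and 0.565, 1.14 and 2.01 and 3.25 and 3.17 TPM in knockout clones 1, 2 and 3. It was highest in both libraries of sgRAC1 clone 3, and a library of sgRAC1 clone 1 was at 0. The difference was 1.14 ± 0.45 (limma adjusted p 0.354), and CCL5, like IL6 and LCN2, was highest in sgRAC1 clone 3. Of the 9 leukocyte markers, CD79A and CD14 were also highest in that clone, at 2.95 and 3.26 TPM, and CD68 averaged 0.109 TPM there. The other 6 (PTPRC, CD3E, LYZ, ITGAM, TYROBP and FCER1G) were at 0 in that clone, FCER1G against 0.541 to 1.46 TPM in RAC1-positive lines. The part of the markers in these results was not tested. CCL2 was above 0 in 2 of 12 libraries, at up to 0.288 TPM.

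The interleukin-6 family, whose members signal through the shared receptor chain IL6ST, held opposite differences: IL6 had its 3 highest line means and IL11 its 3 lowest in the knockout lines, and LIF lay within the spread of the lines. IL6 stood at 2.40 and 3.12 TPM in the parental line, 4.07 and 2.81 in sgNTC clone 1 and 2.47 and 4.29 in sgNTC clone 2. In knockout clones 1, 2 and 3 it stood at 3.97 and 6.20, 10.2 and 9.39 and 27.6 and 9.03 TPM. The 3 knockout line means were the highest and rested most on sgRAC1 clone 3 replicate 1, while a library of sgRAC1 clone 1 lay within the RAC1-positive range. Means over lines were 11.1 ± 6.70 TPM (SD, n = 3) in knockout and 3.19 ± 0.377 TPM in RAC1-positive lines, or 3.47-fold. The log2(TPM + 1) difference was 1.32 ± 0.36 with a limma adjusted p of 0.232 per line and 0.0604 over 12 libraries. STEAP1B overlaps IL6 on the other strand in GENCODE, and whether reads were counted by strand is not stated in the labels.

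IL11 lies at chr19:55364389-55370463 on the minus strand (GRCh38, protein-coding). It was listed at 2.08 and 4.11 TPM in the parental line, 2.71 and 2.09 in sgNTC clone 1 and 1.91 and 1.76 in sgNTC clone 2. IL11 stood at 0.854 and 1.44, 0.214 and 0.682 and 0.230 and 0.179 TPM in knockout clones 1, 2 and 3. Each knockout library lay below each RAC1-positive library, and sgRAC1 clones 2 and 3 stayed under 1 TPM. The difference was -1.13 ± 0.29 with a limma adjusted p of 0.215 per line and 0.0270 over 12 libraries. LIF ranged from 2.16 to 4.25 TPM in knockout libraries, with a median of 3.14. It ranged from 0 to 4.73 in RAC1-positive ones, with a median of 3.24 and the 0 in sgNTC clone 2 replicate 1. Its difference was 0.24 with that library and -0.18 without it.

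Interleukin-1 and tumour necrosis factor, the classic inducers of the pathway, were at or near 0: IL1A, IL1B and TNF were each above 0 in 2 of 12 libraries and reached 0.270, 0.147 and 0.366 TPM at most. Among the colony stimulating factors, which act on macrophages and granulocytes, CSF1 was listed at 4.85 and 6.67 TPM in the parental line, 3.45 and 4.53 in sgNTC clone 1 and 7.55 and 7.70 in sgNTC clone 2. Knockout clones 1, 2 and 3 had 6.40 and 8.36, 4.97 and 4.82 and 9.28 and 6.72 TPM of it. The genotypes overlapped, and the difference of 0.20 ± 0.26 did not pass (limma adjusted p 0.759). CSF2 (GM-CSF) ranged from 2.31 to 5.80 TPM in knockout libraries with a median of 4.62, and from 0 to 6.498 in RAC1-positive ones with a median of 3.31. Its difference was 0.41, and 0.90 without sgNTC clone 2 replicate 1. CSF3 (G-CSF) was listed at 0 in every library.

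IL32, an inflammatory cytokine of epithelial and lymphoid cells, stood at 10.5 and 14.1 TPM in the parental line, 14.3 and 11.3 in sgNTC clone 1 and 0 and 6.67 in sgNTC clone 2. It stood at 19.6 and 19.6, 10.2 and 10.6 and 11.9 and 12.1 TPM in knockout clones 1, 2 and 3. Both libraries of sgRAC1 clone 1 were the highest, and those of sgNTC clone 2 the lowest. The difference was 0.87 ± 0.61 (limma adjusted p 0.589) and 0.38 ± 0.30 without sgNTC clone 2 replicate 1 (adjusted p 0.555).

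Of the 3 subunit genes, NFKB1 varied little and RELB and NFKB2 more between the lines, and none passed. NFKB1, which encodes the p50 subunit and its precursor, was listed at 13.8 and 16.4 TPM in the parental line, 15.2 and 13.9 in sgNTC clone 1 and 18.0 and 14.01 in sgNTC clone 2. Knockout clones 1, 2 and 3 had 13.7 and 13.7, 13.6 and 11.1 and 14.1 and 11.9 TPM. Line means did not overlap, although single libraries did, and the difference was small, at -0.21 ± 0.12 (limma adjusted p 0.492). RELB and NFKB2, the pair of the non-canonical pathway, were low, with line means of 0.602 to 2.61 TPM for RELB and 0.349 to 1.53 TPM for NFKB2. Their genotype means were 1.47 against 1.71 TPM for RELB and 0.942 against 1.06 TPM for NFKB2 in knockout and RAC1-positive lines. Both were at 0 in sgNTC clone 2 replicate 1. Their differences were -0.06 and -0.04, and -0.25 and -0.17 without that library. The signs of both turned under some settings.

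NFKBIA, which encodes the inhibitor IκBα and is itself a quick target of NF-κB, ranked after CXCL8 as the most abundant of the 37 genes per transcript length. NFKBIA stood at 82.3 and 99.9 TPM in the parental line, 60.6 and 63.7 in sgNTC clone 1 and 60.3 and 70.1 in sgNTC clone 2. In knockout clones 1, 2 and 3 it was listed at 63.2 and 81.6, 64.7 and 67.6 and 68.8 and 69.9 TPM. The parental line was the highest, the remaining lines overlapped, and the difference was -0.05 ± 0.15 (limma adjusted p 0.906). NFKBIE, which encodes IκBε, averaged 3.65 ± 0.669 TPM (SD, n = 3 lines) in knockout and 4.88 ± 0.680 TPM in RAC1-positive lines, a difference of -0.35 ± 0.19 (limma adjusted p 0.462). TNFAIP3, the deubiquitinating brake A20, ranged from 2.67 to 5.41 TPM in knockout and 1.01 to 5.88 TPM in RAC1-positive libraries. BCL3, a nuclear IκB protein, ranged from 1.69 to 5.87 and 2.23 to 4.71 TPM in the same order. Neither passed (limma adjusted p 0.630 and 0.735).

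Among receptors, adaptors and survival genes, TNFRSF9 showed the smallest p of the 25. TNFRSF9 (chr1:7915894-7943165, minus strand, GRCh38, protein-coding) encodes 4-1BB (CD137), a receptor of the tumour necrosis factor family. It stood at 3.04 and 3.57 TPM in the parental line, 2.57 and 2.01 in sgNTC clone 1 and 1.62 and 4.94 in sgNTC clone 2. Knockout clones 1, 2 and 3 had 11.8 and 11.1, 7.32 and 6.62 and 10.6 and 10.6 TPM. All knockout libraries lay above all RAC1-positive ones, and the replicates of each knockout clone were close to each other. Means over lines were 9.66 ± 2.37 TPM (SD, n = 3) and 2.96 ± 0.581 TPM, or 3.27-fold. The log2(TPM + 1) difference was 1.46 ± 0.22 with a limma adjusted p of 0.143 per line and 0.00504 over 12 libraries. Over 26 alternative settings the per-line difference ran from 0.88 to 1.73 and its adjusted p from 0.101 to 0.404. Another annotated gene overlaps TNFRSF9 on the other strand in GENCODE.

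BIRC3 encodes cIAP2, a ubiquitin ligase that shields cells from death signals and feeds back on NF-κB. It was listed at 13.8 and 41.4 TPM in the parental line, 14.1 and 16.5 in sgNTC clone 1 and 13.6 and 13.3 in sgNTC clone 2. In knockout clones 1, 2 and 3 it was listed at 31.5 and 42.1, 25.1 and 23.2 and 20.2 and 31.8 TPM. Apart from parental replicate 2, each RAC1-positive library was below each knockout library. The difference was 0.69 ± 0.25 (limma adjusted p 0.312). On the TPM scale the parental line mean of 27.6 was above those of sgRAC1 clones 2 and 3, 24.1 and 26.0. BCL2A1, a survival gene of the BCL2 family, had 18.5 and 33.2 TPM in the parental line, 1.66 and 2.77 in sgNTC clone 1 and 9.39 and 1.92 in sgNTC clone 2. Its knockout values were 43.1 and 16.1, 8.94 and 4.46 and 5.07 and 9.68 TPM in clones 1, 2 and 3. The parental line and sgRAC1 clone 1 were high, the other lines lower, and the difference of 0.62 ± 0.83 had a limma adjusted p of 0.773. TRAF1, a signalling adaptor, ranged from 0.0707 to 1.06 TPM in knockout and 0.234 to 0.793 TPM in RAC1-positive libraries and was not tested.

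Among the effector targets, ICAM1, the adhesion molecule that leukocytes bind on epithelium and endothelium, stood at 25.2 and 27.0 TPM in the parental line, 18.7 and 20.8 in sgNTC clone 1 and 20.7 and 22.7 in sgNTC clone 2. Knockout clones 1, 2 and 3 had 32.2 and 37.2, 25.03 and 42.6 and 48.5 and 61.6 TPM. All knockout libraries but the first of sgRAC1 clone 2 lay above the RAC1-positive range. Means over lines were 41.2 ± 11.99 TPM (SD, n = 3) and 22.5 ± 3.26 TPM, or 1.83-fold. The difference was 0.80 ± 0.21 with a limma adjusted p of 0.227 per line and 0.0429 over 12 libraries. Further genes overlap ICAM1 on the other strand in GENCODE, and whether antisense reads were kept apart is not stated in the labels.

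LCN2 (chr9:128149071-128153455, plus strand, GRCh38, protein-coding) encodes lipocalin-2, an iron-binding protein of the innate response. It was listed at 1.28 and 0.808 TPM in the parental line, 0 and 0.269 in sgNTC clone 1 and at 0 in both libraries of sgNTC clone 2. Its values were 1.43 and 1.87, 5.02 and 3.80 and 5.76 and 4.50 TPM in knockout clones 1, 2 and 3. The knockout libraries lay above the RAC1-positive ones, closely so for sgRAC1 clone 1 and the parental line. The difference was 1.75 ± 0.42 with a limma adjusted p of 0.199 per line and 0.0141 over 12 libraries. LCN2 was also the 1 gene of the 25 whose 6 line means differed beyond the error of repeat libraries (limma F test, adjusted p 0.0265, against 0.322% of all genes). LCN2 had reached the 1 TPM filter through the knockout lines only, and at the 5 TPM filter it was not tested. The call was lost under a pseudocount of 0.1, under the replicate block and without each library of the parental line, sgNTC clone 1 or a knockout clone. Without sgNTC clone 2 replicate 1, LCN2 and TNFRSF9 passed, against 0.633% of all genes. Without sgNTC clone 2 replicate 2, CCL5, LIF, IL32, TNFRSF9 and LCN2 passed, against 5.32% of all genes.

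SOD2, the mitochondrial superoxide dismutase, was listed at 10.9 and 9.71 TPM in the parental line, 13.5 and 6.16 in sgNTC clone 1 and 17.4 and 9.11 in sgNTC clone 2. In knockout clones 1, 2 and 3 it was listed at 13.2 and 18.3, 6.87 and 12.8 and 9.82 and 16.2 TPM. In each RAC1-positive line the first replicate was the higher, and in each knockout line the second. The difference was thus -0.46 in batch 1 and 0.86 in batch 2, and its change between batches had a limma adjusted p of 0.920. The batch 1 value includes sgNTC clone 2 replicate 1. Over both batches the difference was 0.20 with that library and 0.34 without it. SOD2 has overlapping annotations in GENCODE and the table holds 1 value for it. TNFAIP2, a gene first found as induced by tumour necrosis factor, stood at 24.5 and 21.6 TPM in the parental line, 16.9 and 19.8 in sgNTC clone 1 and 27.5 and 30.2 in sgNTC clone 2. It stood at 22.7 and 29.7, 17.0 and 19.6 and 29.2 and 22.9 TPM in the knockout clones, with a difference of 0.00 ± 0.21. PTGS2 (cyclooxygenase-2) was at 0 in every RAC1-positive library and above 0 in 4 of 6 knockout libraries, at no more than 0.364 TPM. SAA1, an acute-phase protein, was above 0 in 5 libraries and reached 2.41 TPM. SAA2 was at 0 throughout, and 46.6% of the windows of 50 bases in SAA1 transcripts are shared with it.

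**Figure D2:**
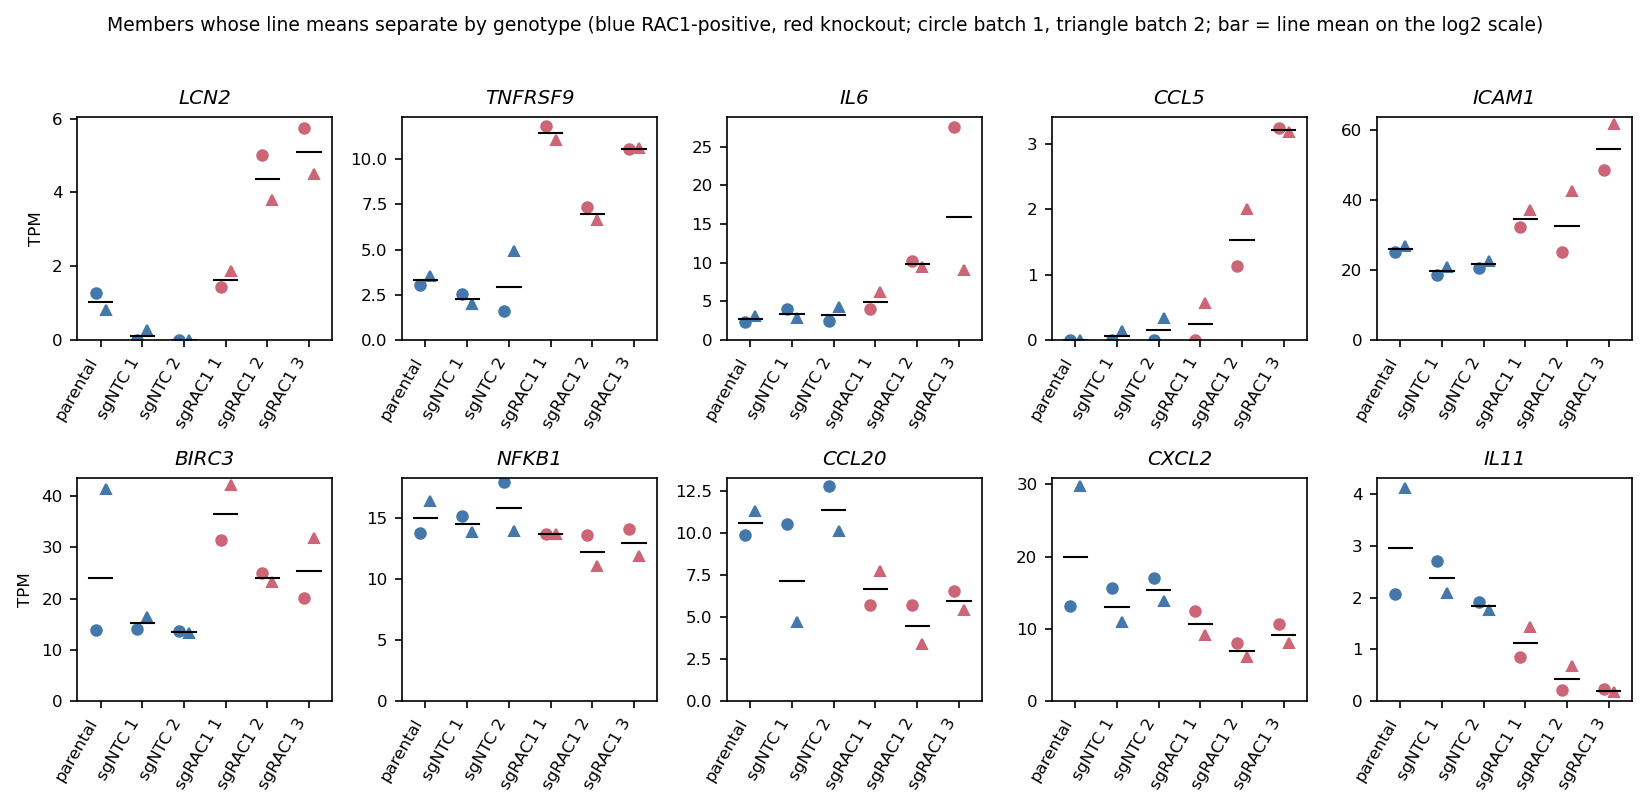
TPM (y axis, starting at 0) of the 10 genes whose line means did not overlap between genotypes, in the 2 libraries of each of the 6 lines (x axis), with blue for RAC1-positive and red for knockout, circles for batch 1 and triangles for batch 2, and a bar for the line mean taken on the log2(TPM + 1) scale. Libraries of the genotypes are fully apart for LCN2, TNFRSF9 and IL11, and the parental line's second library stands out for BIRC3 and CXCL2.

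Each knockout clone was also set against the mean of the 3 RAC1-positive lines, to show how far the clones differed from the controls one at a time. These 3 contrasts share their controls, and the error behind them is that of repeat libraries within lines. In sgRAC1 clone 1, 1 of the 25 genes passed limma at an adjusted p of 0.05, against 0.484% of all genes (0.432% higher): TNFRSF9, at 1.71 ± 0.28 (adjusted p 0.0489). LCN2 was the 1 that passed in sgRAC1 clone 2, at 2.03 ± 0.26 (adjusted p 0.0266), against 0.196% of all genes (0.167% higher). In sgRAC1 clone 3, 5 of 25 passed, all higher, against 1.08% of all genes (0.927% higher). LCN2 rose by 2.21 ± 0.26 (limma adjusted p 0.00663), IL6 by 2.04 ± 0.38 (adjusted p 0.0485) and CCL5 by 1.97 ± 0.32 (adjusted p 0.0311). TNFRSF9 rose by 1.60 ± 0.28 (limma adjusted p 0.0423) and ICAM1 by 1.25 ± 0.20 (adjusted p 0.0285). CCL5 and LCN2 entered the test only through the knockout lines, so for them the filter itself required a high genotype. The same limit holds for LCN2 in sgRAC1 clone 2. With the replicate number as a block, no gene of the 25 passed in clones 1 and 2 (0.507% and 0.104% of all genes), and CCL5, ICAM1 and LCN2 passed in clone 3 (0.8%). Without sgRAC1 clone 3 replicate 1, in which IL6 was at 27.6 TPM, 0 of the 25 passed in that clone (0.104% of all genes), and without sgNTC clone 2 replicate 1 CCL5, TNFRSF9, ICAM1 and LCN2 passed, against 1.53% of all genes. LCN2 passed in that clone in all other cases of 1 library left out. The calls in clones 1 and 2 were kept only when the library left out was one of sgNTC clone 2 (0.892% of all genes passed in clone 1 and 0.19% in clone 2 without its replicate 1, and 1.78% and 1.16% without its replicate 2).

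The differences of the 3 clones are given side by side. CCL5 was at 0.22 ± 0.32, 1.24 ± 0.32 and 1.97 ± 0.32 in clones 1, 2 and 3, IL6 at 0.53 ± 0.38, 1.39 ± 0.38 and 2.04 ± 0.38, and LCN2 at 1.00 ± 0.26, 2.03 ± 0.26 and 2.21 ± 0.26. IL11 was at -0.66 ± 0.30, -1.23 ± 0.30 and -1.48 ± 0.30 in the same order. For these 4 genes sgRAC1 clone 1, the clone of the guide sgRAC1_1, was the nearest to the RAC1-positive lines. For TNFRSF9 (1.71 ± 0.28, 1.06 ± 0.28 and 1.60 ± 0.28) and BIRC3 (1.05 ± 0.35, 0.48 ± 0.35 and 0.55 ± 0.35) it was the farthest. In a limma F test among the 3 knockout lines, added after seeing the data, 0 of the 25 passed, against 0.0576% of all genes, with adjusted p of 0.877 for CCL5 and 0.948 for LCN2. Guide and clone cannot be told apart for sgRAC1_1, which has 1 clone.

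**Figure D3:**
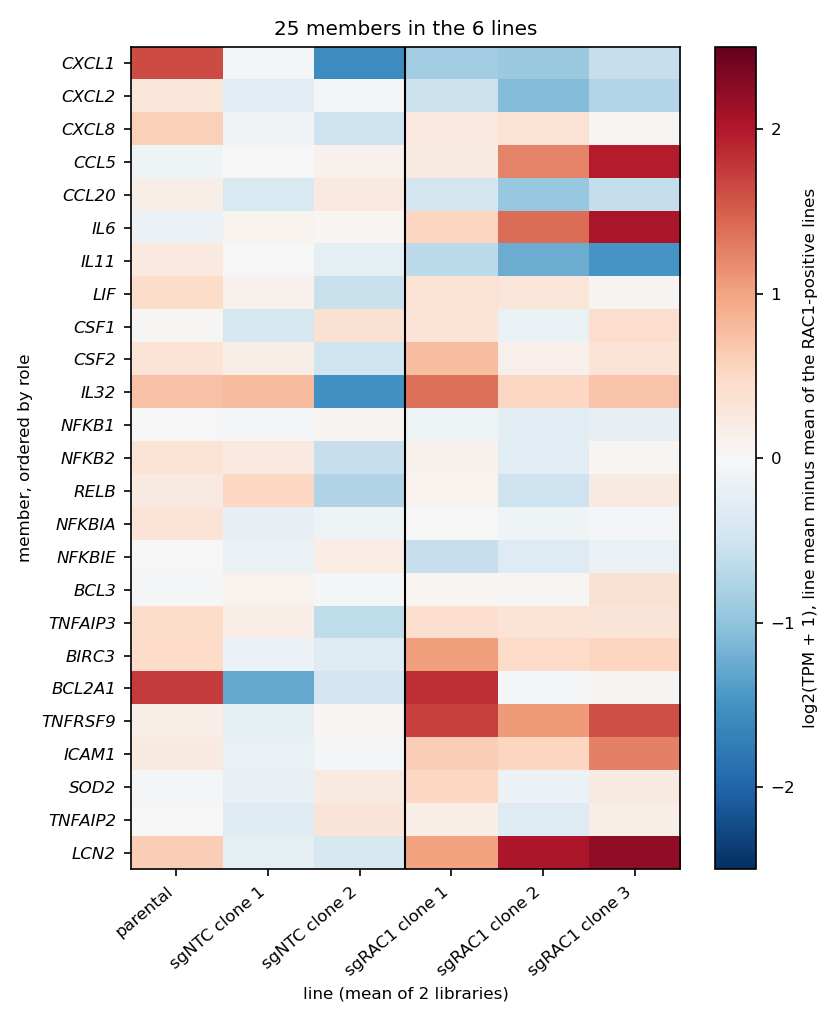
Line mean of log2(TPM + 1) minus the mean of the 3 RAC1-positive lines (colour, red above and blue below 0) for the 25 tested genes in order of role (y axis) in the 6 lines (x axis), with RAC1-positive lines left of the black line. LCN2, IL6 and CCL5 are darkest in sgRAC1 clone 3, and CXCL1, IL32 and BCL2A1 spread widely over the RAC1-positive lines.

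The RAC1-positive lines gave a measure of how far clones differ without the knockout. Against the parental line, 0 of the 25 genes passed in sgNTC clone 1 (0% of all genes) and 0 in sgNTC clone 2 (0.0115% of all genes) in limma. BCL2A1 was at -3.03 ± 0.68 in sgNTC clone 1 and -2.23 ± 0.68 in sgNTC clone 2, CXCL1 at -1.69 ± 0.75 and -3.22 ± 0.75, and CXCL8 at -0.67 ± 0.50 and -1.11 ± 0.50. IL32 was at 0.06 in sgNTC clone 1 and -2.25 in sgNTC clone 2. Without sgNTC clone 2 replicate 1, that clone was at -3.15 for BCL2A1, -2.18 for CXCL1, -1.20 for CXCL8 and -0.78 for IL32. LCN2 was at -0.85 ± 0.31 and -1.02 ± 0.31, and TNFRSF9 at -0.39 ± 0.35 and -0.12 ± 0.35. Without sgNTC clone 2 replicate 2, so that sgNTC clone 2 rests on its sparse library, CXCL1, LIF, IL32 and RELB passed in sgNTC clone 2, against 10.7% of all genes. In an F test among the 3 RAC1-positive lines, added after seeing the data, 0 of the 25 passed (0.0115% of all genes), and CXCL1, LIF, IL32, RELB and BCL2A1 passed without that same library, against 8.25% of all genes. The parental line had the highest mean TPM of the 6 for 8 of the 25 genes: CXCL1, CXCL2, CXCL8, IL11, LIF, NFKB2, NFKBIA and TNFAIP3. The share of all genes for which it was the highest was not computed.

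Batch 2 was compared with batch 1 within lines, to show how far the levels moved between the replicates. None of the 25 genes passed in limma (0.0115% of all genes did), with 17 higher and 8 lower in batch 2. That split was not computed over all genes. The genotype difference had the same sign in both batches for 20 of the 25 genes, and for 58.7% of all genes tested. LIF, NFKB2, RELB, SOD2 and TNFAIP2 had opposite signs in the batches. TNFRSF9 differed by 1.68 in batch 1 and 1.24 in batch 2, LCN2 by 1.81 and 1.68, and IL6 by 1.58 and 1.06. ICAM1 differed by 0.65 and 0.95, IL11 by -1.19 and -1.06, and CXCL2 by -0.53 and -1.03. In a limma test added after seeing the data, the change of the difference between batches passed for 0 of the 25 genes (0% of all genes). In batch 1 alone the libraries of the genotypes did not overlap for 6 of 25 genes, against 14.4% of all genes. In batch 2 alone, where 27 of the 37 genes reached the filter, they did not overlap for 10, against 20.5% of all genes.

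**Figure D4:**
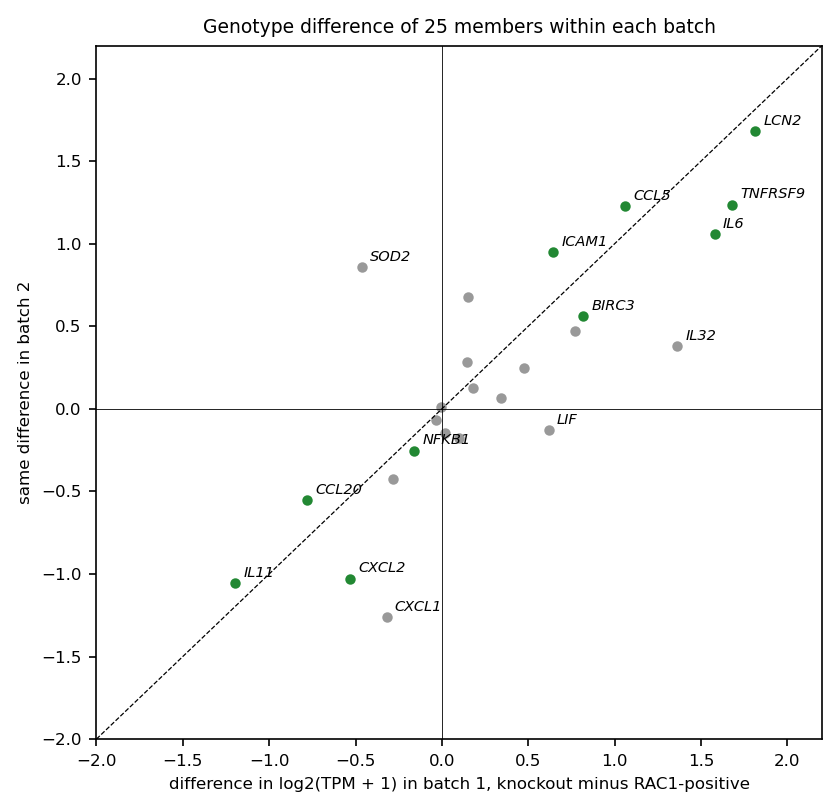
Difference in log2(TPM + 1) between knockout and RAC1-positive libraries in batch 1 (x axis) and in batch 2 (y axis) for the 25 tested genes, with the dashed line marking equal values and green marking the 10 genes whose line means did not overlap. SOD2 lies at -0.46 in batch 1 and 0.86 in batch 2. The 10 green points have the same sign in both batches, and some lie off the dashed line (IL6 at 1.58 and 1.06, CXCL2 at -0.53 and -1.03).

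The rest of the pathway was covered by 7 further lists with 108 genes, of which 80 reached the filter. None of the 80 passed the per-line test in limma, and 3 passed over 12 libraries (2.12% of all genes did), all higher in the knockout lines. Among 10 tested receptors that start the pathway, 0 passed, and the smallest p belonged to CD40 (8.53 against 5.84 TPM in knockout and RAC1-positive lines, adjusted p 0.269 per line) and LTBR (5.90 against 3.87 TPM, adjusted p 0.323), which both feed the non-canonical branch. Of 18 adaptors and ubiquitin enzymes 0 passed, and TRAF2 (15.1 against 21.1 TPM) and MYD88 (18.8 against 12.7 TPM) had the smallest p. Of 8 kinases 0 passed, with MAP3K8 (2.91 against 1.74 TPM) and IKBKE (11.6 against 8.62 TPM) first. Of 9 other subunits and inhibitors 0 passed, with TNIP2 (11.8 against 9.55 TPM) and NFKBIB (3.93 against 5.14 TPM) first.

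Of 19 other NF-κB targets, TNFAIP8, a regulator of cell survival, rose over 12 libraries, from a mean of 4.38 TPM in RAC1-positive to 9.48 TPM in knockout lines. Its difference was 0.96 ± 0.20 (limma adjusted p 0.0124, and 0.168 per line). Of 5 tested receptors for the ligands described here, CSF2RA, the binding chain of the GM-CSF receptor, rose from 9.55 to 26.7 TPM (limma adjusted p 0.0202 over 12 libraries, 0.197 per line). CSF2RB, the signalling chain of that receptor, was at 0 in every library, as were CXCR2, CCR2, CCR6 and CSF3R, while CXCR1 and CSF1R stayed at or below 0.125 TPM. IL6R (5.72 against 5.67 TPM), IL6ST (17.8 against 17.0 TPM), LIFR (6.18 against 6.34 TPM) and IL11RA (1.78 against 1.51 TPM) were present. Of 11 genes of STAT3 feedback and targets, OSMR, the oncostatin M receptor, rose from 29.8 to 44.9 TPM (limma adjusted p 0.0308 over 12 libraries, 0.199 per line).

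The fibrinogen chains on the STAT3 list differed between clones. FGB averaged 4.44, 15.8 and 107 TPM in sgRAC1 clones 1, 2 and 3 and 43.5, 21.6 and 13.5 TPM in the parental line and sgNTC clones 1 and 2. It fell in sgRAC1 clone 1 and rose in sgRAC1 clone 3 (limma adjusted p 0.00892 and 0.00535). FGA and FGG averaged 6.31 and 10.3 TPM in sgRAC1 clone 3 and below 1 TPM in the other lines. Both rose in sgRAC1 clone 3 (limma adjusted p 0.00853 and 0.0190). They entered the test only through that clone, so for them the filter itself required a high value there. Of all genes, 0.484% passed in sgRAC1 clone 1 and 1.08% in sgRAC1 clone 3. IL6 and LCN2 were also highest in sgRAC1 clone 3, IL6 at 27.6 and 9.03 TPM in its libraries. In sgRAC1 clones 1 and 2 IL6 averaged 5.08 and 9.82 TPM, against 3.19 TPM in RAC1-positive lines. In both of these clones FGB was below the parental line and sgNTC clone 1. A link between these genes was not tested.

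The authors' deposited table gives a log2 fold change and an adjusted p for 25 of the 37 genes, and 8 of them are below 0.05 there, against 9.74% of 15140 genes. CXCL1, CXCL2 and IL11 are the lower ones (4.06% of all genes) and IL6, BIRC3, TNFRSF9, ICAM1 and LCN2 the higher ones (5.68%) in the authors' deposited table. In the authors' deposited table TNFRSF9 has a log2 fold change of 1.63 ± 0.23 (SE) with an adjusted p of 9.62e-10, ICAM1 0.84 ± 0.18 with 0.000118, and LCN2 2.85 ± 0.68 with 0.000891. IL6 has 1.66 ± 0.41 with 0.00154 and IL11 -2.001 ± 0.53 with 0.00335 in the authors' deposited table. The mean of normalized counts given there is 5.67 for LCN2 and 6.99 for IL11, so both rest on few counts. It is 25.6 for IL6, 68.9 for TNFRSF9 and 203 for ICAM1. How the authors grouped the libraries is not stated in the labels, and these values are no independent evidence. Of the 24 genes that have both values, 23 had the same sign as in the per-line comparison, LIF being the exception.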

How the data were processed

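RNA-seq was made from 12 bulk libraries, 2 from each of 6 DU145 lines, starting from 160 ng of RNA per the labels' protocols. Per the submitters' processing notes, bcl2fastq, STAR 2.6.1d, DESeq2 and GRCh38 were used to make the table, and the counter, strand setting and annotation are not stated there. The authors deposited TPM for 56832 genes. Per the file headers the same deposited table holds the authors' comparison: for each gene tested, the authors' average signal, the log2 change and its error, the Wald score and p-values before and after adjustment.

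The test for counts could not be used, because the values are TPM. Values were taken as log2(TPM + 1), which understates the change of low genes, and genes with a mean of 1 TPM in either genotype were kept. Line means were compared with limma 3.58.1 (R 4.3.3, statmod 1.5.0, variance trend) with Benjamini-Hochberg adjustment. Libraries were tested with the line as a random block, lines with limma contrasts and F tests, and batches within lines. The scripts were tested on simulated data. Because TPM keeps no depth, no counting interval is given, and the authors' mean of normalized counts is 1 value per gene, not 1 per library. The labels call the replicates biological; p-values between the libraries of a line measure only their spread. Of 66 pairs of libraries 0 were identical.

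The genes and the lists were chosen with earlier results of these data known. Genes at 5 TPM or more in either genotype, or passed by a test, are given per library and the rest by range. From each further list up to 4 genes that passed a test are named, otherwise the 2 with the smallest per-line p. Promoters were taken for genes that passed or stood apart, at most 6 by level, and shown only where a κB match was left outside exons. The stretches of CXCL1, CXCL2, TNFRSF9, LCN2 and NFKBIA were added after their values were seen. Gene positions and overlaps come from GENCODE release 29. Alternatives were pseudocounts of 0.1 and 5, a 5 TPM filter and none, median-of-ratios and upper quartile scaling, each library or line left out, each batch alone and the replicate block. Some genes are not reported here.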

Additional observations from a re-analysis of the deposited data

Results flagged for a closer look

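Of 50 groups of 6 libraries, the RAC1-positive and the knockout libraries of each of the 25 tested genes, 9 held a library that stood far from the rest for the group's range (Dixon's criterion). Chance alone gives about 1 in 20 such groups for independent, normally distributed values. The 6 libraries are 2 from each of 3 lines and were taken as TPM, so that rate need not hold here. Genes of a library are not independent either. In parental replicate 2, CXCL1 stood at 33.9 TPM (next value 9.46), CXCL2 at 29.7 (17.0), CXCL8 at 374 (152) and BIRC3 at 41.4 (16.5), so 4 of the 9 came from this library. In sgNTC clone 1 replicate 2, CCL20 was the lowest of the RAC1-positive libraries at 4.73 TPM (next value 9.89). Among knockout libraries, IL6 stood at 27.6 TPM in sgRAC1 clone 3 replicate 1 (next value 10.2) and CXCL1 at 4.81 in sgRAC1 clone 3 replicate 2 (2.82). BCL2A1 stood at 43.1 TPM in sgRAC1 clone 1 replicate 1 (next value 16.1) and NFKBIA at 81.6 in sgRAC1 clone 1 replicate 2 (69.9).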

How the results depend on the processing

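The per-line comparison called 0 of the 25 genes under every alternative run. Over 12 libraries the count of 4 became 2 without a filter on level, and 0 to 5 with 1 library or line left out (0 without the line sgRAC1 clone 3). For sgRAC1 clone 1 the count of 1 became 0 under a pseudocount of 0.1, no filter, median-of-ratios scaling, upper quartile scaling and the replicate block, and ranged from 0 to 2 with 1 library left out. For sgRAC1 clone 2 the count of 1 became 0 under a pseudocount of 0.1, the 5 TPM filter, no filter and the replicate block, and ranged from 0 to 3. For sgRAC1 clone 3 the count of 5 became 2 under a pseudocount of 0.1 and 3 under the 5 TPM filter, no filter, median-of-ratios scaling, upper quartile scaling and the replicate block, and ranged from 0 to 7. The count of 1 gene that differed among lines became 0 under a pseudocount of 0.1, the 5 TPM filter and the replicate block, and ranged from 0 to 5. Counts of 0 for sgNTC clone 2 and among RAC1-positive lines ranged up to 4 and 5 with 1 library left out. The 10 genes with line means apart became 6 in batch 1 alone, against 14.4% of all genes, and 9 to 14 with a library or line left out. The share of all genes that passed moved with the setting as well. For sgRAC1 clone 3 it went from 1.08% to 0.104% without that clone's replicate 1. For the test among lines it went from 0.322% to 5.32% without sgNTC clone 2 replicate 2. Where no share is given here or above, a count cannot be set against all genes. At 5 TPM only 15 of the genes were tested, without LCN2 and CCL5. The cause of the other moves was not tested.

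The replicate number, which is the batch, did not pair the lines: deviations of same-numbered libraries correlated at -0.126 to 0.296 over 15 pairs of lines, above 0.1 in 2. As a block it left the count over 12 libraries at 4.

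Of 684 differences of single genes under alternatives, 37 had the opposite sign. They were NFKB2 at 0.16 and RELB at 0.18 under a pseudocount of 0.1, TNFAIP2 at -0.019 under upper quartile scaling, RELB at 0.020, SOD2 at -0.46 and TNFAIP2 at -0.0066 in batch 1, LIF at -0.13 in batch 2, and others with a library or line left out. There the difference ranged for CXCL1 from -1.58 to 0.027, CXCL8 from -0.043 to 0.51, LIF from -0.18 to 0.66, CSF1 from -0.0026 to 0.40, CSF2 from -0.071 to 0.90. It ranged for NFKB2 from -0.33 to 0.087, RELB from -0.44 to 0.20, NFKBIA from -0.15 to 0.12, BCL3 from -0.059 to 0.37, BCL2A1 from -0.019 to 1.495, TNFAIP2 from -0.15 to 0.16. With TPM, depth is unknown, so counting error is not covered by these values.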
